A study of Mus musculus with 17 samples.

Results

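The genes described here handle vitamin A in fat or answer to it. They are 9 in number: Stra6, Rdh10, Aldh1a1, Aldh1a2, Aldh1a7, Retsat and the receptors Rara, Rarb and Rarg. They were read from all gene probes of the array that were matched to one of these symbols. The match used the RefSeq accession first, and otherwise the gene name in the scanner files or an alias. This gave 14 probes of 9 genes among 41174 probes of 27573 genes. The tissue was epididymal white fat, the pad next to the testis, from male C57BL/6J mice that were adult. All mice ate a purified high-fat diet, with 30% of its energy as fat, for 13 weeks. For 9 samples the carbohydrate of the diet had a high glycemic index (HGI), and for 8 it had a low glycemic index (LGI). The index ranks carbohydrates by the rise in blood glucose after they are eaten. Each sample's RNA, labelled with Cy5, was hybridized to its own Agilent array against a Cy3-labelled pool, per the labels of all samples, so each value is a log2 ratio of sample over pool. Differences are given as HGI minus LGI. Whole tissue was used, so a smaller share of one cell type and less of its RNA per cell cannot be told apart.

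Retinol reaches fat cells bound to retinol-binding protein. Stra6 is a membrane receptor that passes retinol from this carrier into cells, Rdh10 oxidises retinol to retinaldehyde, and the Aldh1a enzymes oxidise retinaldehyde to retinoic acid. Retinoic acid binds the nuclear receptors Rara, Rarb and Rarg, which pair with retinoid X receptors on DNA and control transcription. In fat, retinoids are known to affect the formation of adipocytes and their use of lipid, and white fat stores part of the body's vitamin A.

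The RefSeq table of assembly GRCm38.p6 held 16 promoters of 8 members, each from 250 bases before the start site to 50 bases from it on, and none for Rdh10. The receptor half-site was searched on both strands as AGGTCA, as its variant with T for the second of the paired G letters (AGTTCA), and as both of these with G for the leading A, in direct repeats with 5, 2 or 1 bases between the copies (named DR5, DR2 and DR1). Of the 16 member promoters, 1 held a DR5, against 32 of all 32851 promoters (0.0974%), and none held a DR2 (0.268% of all) or a DR1 (0.222%). The promoter with the DR5 was that of Rarb, a receptor gene that retinoic acid is known to induce through this element. Its 250 bases before the start site, at chr14:16575477-16575726 on the minus strand, are shown because Rarb is both a receptor and a target of the pathway, and the capitals mark the DR5 at bases -53 to -37.
Rarb: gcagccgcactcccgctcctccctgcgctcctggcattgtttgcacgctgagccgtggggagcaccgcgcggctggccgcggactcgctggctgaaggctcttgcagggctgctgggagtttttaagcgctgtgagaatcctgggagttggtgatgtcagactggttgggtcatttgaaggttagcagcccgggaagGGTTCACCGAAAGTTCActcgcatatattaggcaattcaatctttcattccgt

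Aldh1a1 and Aldh1a7 are neighbouring paralogues, and the bases before their start sites are shown because the 2 genes did not vary together across the arrays. The 2 starts lie 126 kb apart on chromosome 19 and face opposite strands. From base -110 to base -1 the 2 promoters aligned over 111 columns, of which 106 (95.5%) were identical, 3 differed and 2 were gaps. Capitals mark the bases that differ or lie opposite a gap. The Aldh1a1 stretch is chr19:20601858-20601967 on the plus strand, and the Aldh1a7 stretch is chr19:20727557-20727666 on the minus strand.
Aldh1a1: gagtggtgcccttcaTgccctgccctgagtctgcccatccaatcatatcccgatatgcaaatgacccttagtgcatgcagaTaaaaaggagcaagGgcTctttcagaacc
Aldh1a7: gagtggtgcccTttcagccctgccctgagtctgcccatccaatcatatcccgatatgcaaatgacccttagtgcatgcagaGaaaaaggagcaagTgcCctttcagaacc
Both stretches hold the octamer ATGCAAAT at bases -56 to -49, and so does Aldh1a2 at bases -84 to -77, while 1.74% of all promoters hold it on either strand. The box CCAAT, found in 37.4% of all promoters, lies at bases -72 to -68 in both. A match describes the letters and says nothing of a factor's binding.

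Of the 14 member probes, 10 probes of 8 genes had a Cy5 signal well above background on at least 8 arrays and were tested with 25514 probes in all. The probe of Rara, Rarb probe 2 and Rarg probe 4 were not well above background on any of the 17 arrays, and Rarg probe 3 was on 2 HGI and 4 LGI arrays. No member probe was saturated. Per array, 54.2% to 66.7% of gene spots exceeded background clearly. All 8 adipocyte markers (Adipoq, Plin1, Fabp4 and others) were well above background on all 17 arrays. Their mean was lowest in HGI 9 (-0.29), LGI 2 (-0.27), LGI 9 (-0.26) and HGI 10 (-0.21), and at least -0.15 elsewhere. LGI 2 also had the highest mesothelium marker mean of the 17 arrays, 0.45. The highest Stra6 (0.60) and Retsat (0.45) and the lowest Aldh1a1 (-0.41) were on LGI 2 too. Detection alone does not settle the tissue, because all 7 tested epididymis markers were well above background on all 17 arrays too. HGI 9 and HGI 10 stood apart: the correlation between this pair was 0.79, and with any other array it lay between -0.04 and 0.15. Their seminal vesicle markers (Svs1, Svs2, Svs4 and others, secretory proteins of a gland near this fat pad) averaged 1.59 and 1.58, against -4.28 to -3.98 on the other HGI arrays and -4.30 to -3.93 on the LGI arrays. All 7 tested markers of that list were well above background on every array. Epididymis markers averaged -3.32 to -2.86 on the HGI arrays and -3.38 to -2.91 on the LGI arrays, below the pool throughout. For these markers the pool's level is thus not the mean of the samples, although the labels call it a pool of all samples. The make-up of the pool was not tested. LGI 9 had the highest motile cilia and sperm marker means of the LGI arrays, 0.59 and 0.25. Only 1 of 3 tested cilia markers and 2 of 5 tested sperm markers were well above background on every array. General epithelium markers averaged 0.93 in HGI 9 and 0.60 in HGI 10, against -1.93 to -0.90 on the other HGI arrays, and 0.61 in LGI 9, against -1.74 to -1.02 on the other LGI arrays. Differences are therefore given over 17 arrays and over 15, without HGI 9 and HGI 10.

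No member passed an adjusted p of 0.05 between the diets, nor did any of the 25514 tested probes (0% of them; limma, Benjamini-Hochberg over all). The smallest adjusted p of a member was 0.63 over 17 arrays and 0.39 over 15 arrays. Over 17 arrays 7 of the 10 probes had a higher mean in HGI and 3 a lower one. The members' median difference was 0.10 over 17 arrays and 0.04 over 15, against 0.0018 for all tested probes over 17, and their median absolute difference over 17 arrays was 0.11, against 0.064. At an unadjusted p under 0.05, 2 of the 10 members stood out, Stra6 (lower) and the second Rarg probe (higher), against 7.65% of all tested probes (1951 probes; 3.62% higher and 4.03% lower). Over 15 arrays 3 members did, Aldh1a7 and Aldh1a2 (higher) and Stra6 (lower), against 7.45% of all probes (4.71% higher and 2.75% lower). Over 14 arrays, without LGI 9 as well, 1 member did, Aldh1a7, against 6.86% of all probes (4.19% higher and 2.67% lower). None of the 10 had diet groups that did not overlap, as 0.0314% of all probes did over 17 arrays and 0.0666% over 15. All 10 absolute differences were under 0.5, as were those of 99.6% of all tested probes, beside a median standard error of 0.080.

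**Figure D1:**
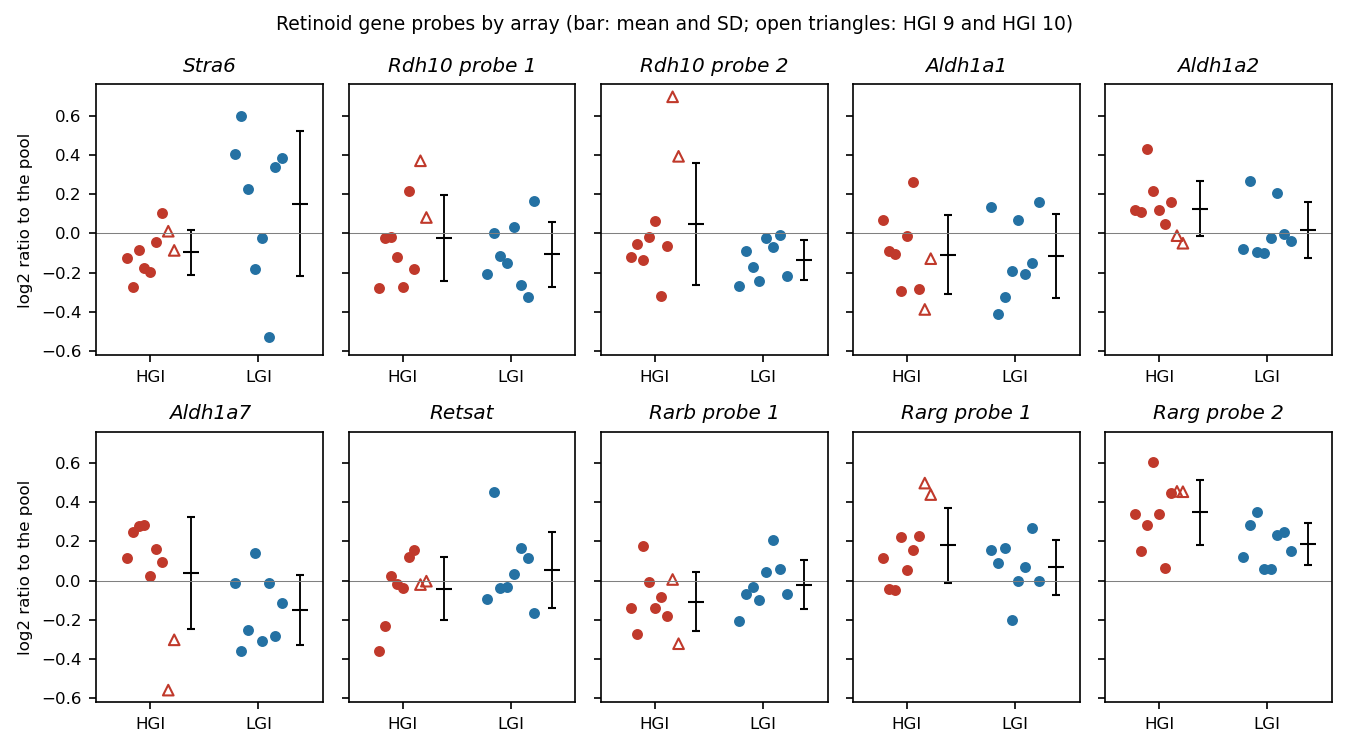
Log2 ratio to the pool (vertical axis) of each tested member probe on every array, HGI left and LGI right in each panel, with the mean and SD at the side of each group. HGI 9 and HGI 10, open triangles, are the lowest HGI arrays for Aldh1a7 (-0.56 and -0.30 against 0.02 to 0.28 on the other HGI arrays) and the highest of all 17 arrays for the second Rdh10 probe and the first Rarg probe.

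Stra6, the receptor for retinol-binding protein, had a lower mean in HGI but did not pass the adjusted test. Its log2 ratio ran from -0.27 to 0.10 with a median of -0.09 on the HGI arrays, and from -0.53 to 0.60 with a median of 0.28 on the LGI arrays. All 9 HGI values lay below the LGI median, while LGI 7 (-0.53) lay below every HGI array and LGI 5 (-0.18) and LGI 6 (-0.03) lay within the HGI range. The means were -0.10 ± 0.11 in HGI (SD, n = 9) and 0.15 ± 0.37 in LGI (SD, n = 8), so the LGI arrays were the more scattered. The difference was -0.25 ± 0.12 (SE), a 0.841-fold level in HGI (95% interval 0.710 to 0.997), with adjusted p = 0.65 by limma. Without HGI 9 and HGI 10 it was -0.27 ± 0.13 (adjusted p = 0.67), and without LGI 9 as well it was -0.23 ± 0.13 (adjusted p = 0.79). Of the 17 arrays, LGI 7 moved the value most: without it the difference was -0.35 (adjusted p = 0.25). With Cy5 intensities alone it was -0.09, and in the authors' deposited values -0.14. Both were smaller than the fitted difference. Of the marker lists compared, those of mesothelium and sperm had the largest r with Stra6 over the 15 arrays. Stra6 correlated with the mesothelium mean at r = 0.60 (rho = 0.67), but at 0.35 over the 13 arrays left without the 2 farthest from the median. Within the 7 HGI arrays it correlated at 0.88, and within the 8 LGI arrays at 0.46. With the sperm markers, of which 3 of 5 tested had a lower mean in HGI, it correlated at r = 0.57 (rho = 0.69), at 0.44 without the 2 farthest, at 0.30 within HGI and at 0.48 within LGI. The sperm mean ran from -0.42 to -0.21 on the HGI arrays and from -0.32 to 0.25 on the LGI arrays. Only 2 of its 5 tested markers were well above background on all 17 arrays. Other lists were larger in size without their 2 farthest arrays: epididymis (0.63), seminal vesicle (0.54) and macrophage (-0.51). With the adipocyte mean Stra6 correlated at -0.45 over 15 arrays, at -0.77 within HGI and at -0.52 within LGI, but at 0.08 without the 2 farthest. The part of any of these cells in the Stra6 difference was not tested.

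The mean of Rdh10, the retinol dehydrogenase, was higher in HGI mainly through HGI 9 and HGI 10. On its first probe the HGI arrays ran from -0.28 to 0.37 (median -0.02) and the LGI arrays from -0.32 to 0.17 (median -0.13). On its second probe the HGI arrays ran from -0.32 to 0.70 (median -0.06), with 0.70 in HGI 9 and 0.39 in HGI 10 and at most 0.06 on the other 7, and the LGI arrays from -0.27 to -0.01 (median -0.13). The groups overlapped on both probes. The differences were 0.08 ± 0.09 (adjusted p = 0.86) and 0.19 ± 0.11 (adjusted p = 0.72) over 17 arrays, and 0.01 ± 0.08 and 0.04 ± 0.07 over 15. Without HGI 9 alone they were 0.03 and 0.10. The 95% intervals over 15 arrays ran from 0.891 to 1.14-fold and from 0.937 to 1.13-fold. The 2 probes correlated at 0.40 over 17 arrays and at -0.47 over 15, so they disagreed once HGI 9 and HGI 10 were left out.

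The 3 Aldh1a enzymes make retinoic acid or are close copies of those that do. Aldh1a1, the main retinaldehyde dehydrogenase of white fat cells, did not differ detectably: the HGI arrays ran from -0.39 to 0.26 (median -0.10) and the LGI arrays from -0.41 to 0.16 (median -0.17). The groups covered nearly the same range. The means were -0.11 ± 0.20 in HGI (SD, n = 9) and -0.12 ± 0.21 in LGI (SD, n = 8). The difference was 0.01 ± 0.10 (adjusted p = 0.99 by limma), with a 95% interval of 0.876 to 1.15-fold. These arrays do not exclude a change of a size within that interval. Over 15 arrays the difference was 0.05 ± 0.10.

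Aldh1a2, the enzyme that makes most of the retinoic acid of the embryo, had a higher mean in HGI but did not pass the adjusted test. The HGI arrays ran from -0.05 to 0.43 with a median of 0.12, and the LGI arrays from -0.10 to 0.27 with a median of -0.03. Of the 9 HGI arrays, 8 lay above the LGI median, and the exception was HGI 10. The means were 0.13 ± 0.14 in HGI (SD, n = 9) and 0.02 ± 0.14 in LGI (SD, n = 8). The difference was 0.11 ± 0.07 (adjusted p = 0.75) over 17 arrays and 0.16 ± 0.07 (adjusted p = 0.66) over 15, where all 7 HGI arrays lay above the LGI median. Over 17 arrays it was 0.07 without HGI 3, the highest array, and 0.02 with Cy5 intensities alone.

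Aldh1a7 lay above the LGI median on 7 of 9 HGI arrays and below it on the other 2, HGI 9 and HGI 10. It is a rodent paralogue of Aldh1a1 that is reported to act poorly on retinaldehyde. The HGI arrays ran from -0.56 to 0.28 with a median of 0.12, and the LGI arrays from -0.36 to 0.14 with a median of -0.18. HGI 9 (-0.56) and HGI 10 (-0.30) were the 2 lowest of the HGI arrays, and the other 7 lay between 0.02 and 0.28, all above the LGI median, while LGI 5 (0.14) was the highest LGI array. The difference was 0.19 ± 0.11 (adjusted p = 0.72) over 17 arrays. Without HGI 9 and HGI 10 it was 0.32 ± 0.08, a 1.25-fold level in HGI (95% interval 1.12 to 1.40), with adjusted p = 0.39 by limma, and it ranked 29 by p among all tested probes. Without LGI 9 as well it was 0.33 ± 0.08 (adjusted p = 0.49). Over 17 arrays it was 0.30 with array weights (adjusted p = 0.27) and 0.11 in the authors' deposited values.

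**Figure D2:**
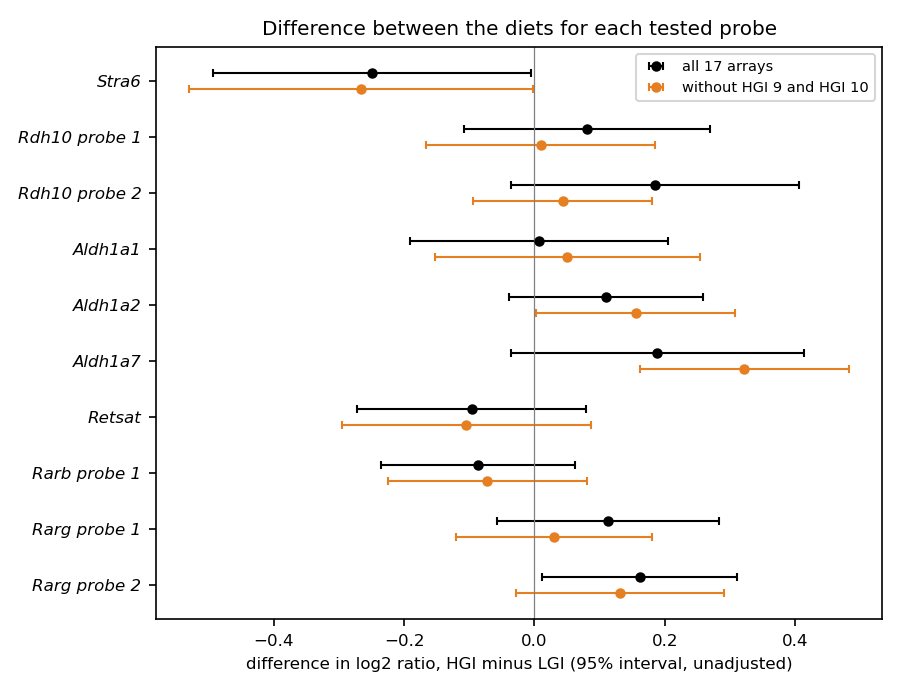
Difference in log2 ratio, HGI minus LGI (horizontal axis), of each tested member probe with its unadjusted 95% interval, over all 17 arrays (black) and without HGI 9 and HGI 10 (orange). Aldh1a7 moves from 0.19 to 0.32 and the second Rdh10 probe from 0.19 to 0.04 when the 2 arrays are left out.

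Aldh1a7 and Aldh1a1 did not vary together: they correlated at 0.31 over 17 arrays and at 0.16 over 15 (rho = 0.11). Probes of such close paralogues can bind each other's transcript, and the probe sequences were not used here, so how far each probe reads only its own gene was not tested. Aldh1a7 also went opposite to Stra6, at r = -0.62 over 15 arrays (rho = -0.59). These correlations describe points that share the pool and the diets.

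**Figure D3:**
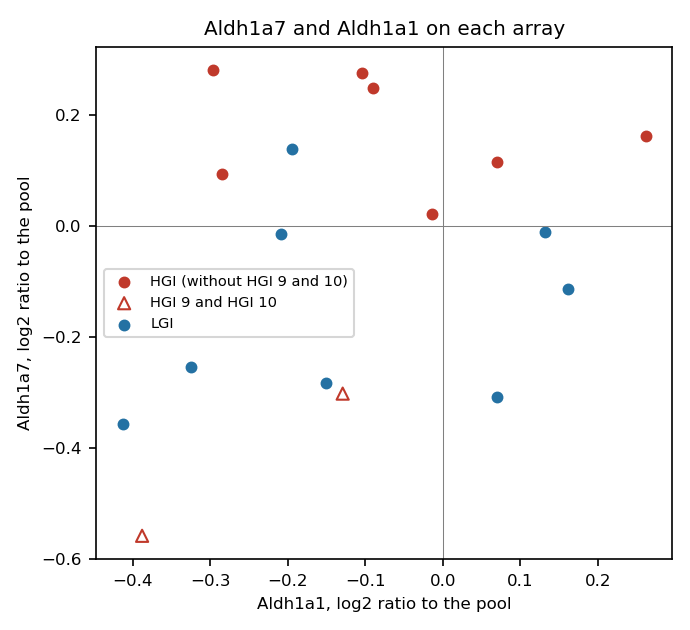
Log2 ratio to the pool of Aldh1a7 (vertical axis) and Aldh1a1 (horizontal axis), 1 point for each array, HGI in red and LGI in blue. Aldh1a1 runs from -0.39 to 0.26 in HGI and from -0.41 to 0.16 in LGI, while the filled HGI points lie higher for Aldh1a7 than most LGI points.

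Macrophage markers moved with Aldh1a7 and mesothelium markers against it. Over 17 arrays all 8 macrophage markers (Adgre1, Cd68, Csf1r and others) had a higher mean in HGI, none past the adjusted test, and so did 7 of 9 fibroblast markers, while 7 of 8 mesothelium markers had a lower one. The macrophage mean ran from -0.09 to 0.61 on the 7 HGI arrays without HGI 9 (-0.26) and HGI 10 (-0.09), and from -0.16 to 0.11 on the LGI arrays. The mesothelium mean ran from -0.39 to 0.34 on those HGI arrays and from -0.11 to 0.45 on the LGI arrays. Each of these markers was well above background on all 17 arrays. Aldh1a7 correlated with the macrophage mean at r = 0.73 over 15 arrays (rho = 0.80), at 0.69 over the 13 arrays left without the 2 farthest from the median, at 0.76 within the 7 HGI arrays and at 0.76 within the 8 LGI arrays. It correlated with the mesothelium mean at -0.75 (rho = -0.78), at -0.59 without the 2 farthest, at -0.43 within HGI and at -0.85 within LGI. With the fibroblast mean it correlated at 0.54 (rho = 0.54), at 0.26 without the 2 farthest, at 0.76 within HGI and at -0.17 within LGI. By rank, sperm (rho = -0.62, r = -0.40) and general epithelium markers (rho = -0.57, r = -0.42) exceeded the fibroblast list in size. With the endothelium mean Aldh1a7 correlated at 0.33 over 15 arrays, at 0.91 within HGI and at 0.19 within LGI. Of the 100 pairs of a member probe and a marker list that were compared, those with macrophages and mesothelium were among the strongest. The first Rdh10 probe and the adipocyte mean, at r = -0.60 over 15 arrays (-0.20 within HGI and -0.82 within LGI), exceeded the fibroblast pair in size. The part that the share of macrophages, mesothelium, fibroblasts and other cells plays in the Aldh1a7 difference was not tested.

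**Figure D4:**
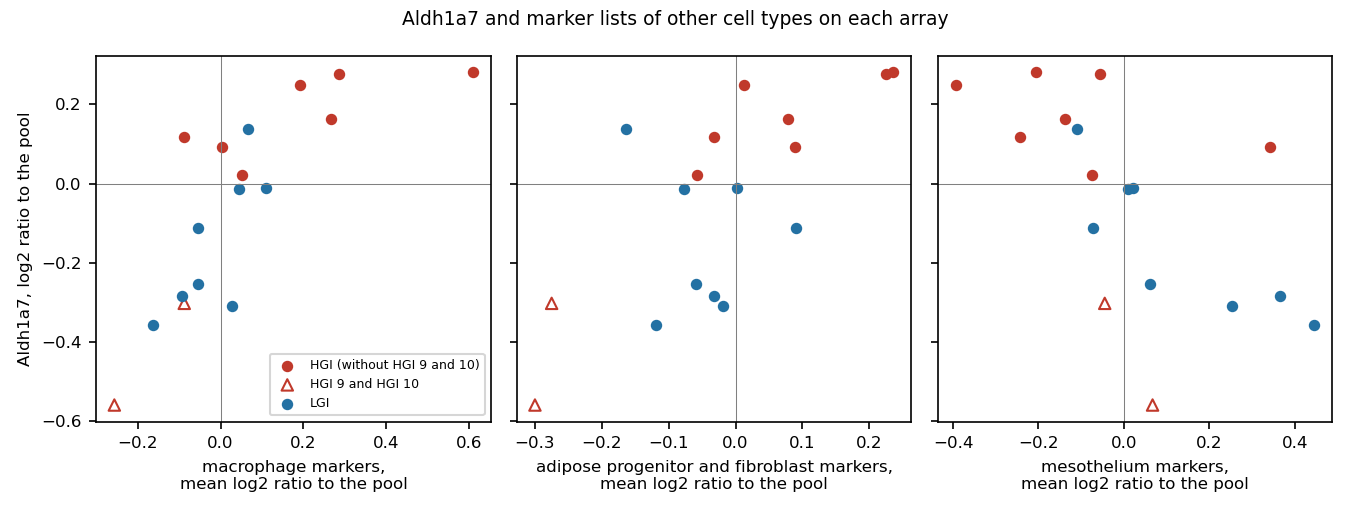
Log2 ratio to the pool of Aldh1a7 (vertical axis) against the mean log2 ratio of macrophage, fibroblast and mesothelium markers (horizontal axes), 1 point for each array. The macrophage panel rises in both diets (r = 0.76 within each), with HGI 9 and HGI 10, open triangles, at the lower left.

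Retsat, retinol saturase, which adds hydrogen to a double bond of retinol and is needed for the formation of fat cells in culture, was not detectably different. The HGI arrays ran from -0.36 to 0.16 with a median of -0.02, and the LGI arrays from -0.17 to 0.45 with a median of 0.00. LGI 2 (0.45) was far above the other LGI arrays, whose highest was 0.17. The difference was -0.10 ± 0.08 (adjusted p = 0.81), with a 95% interval of 0.828 to 1.06-fold, and over 15 arrays it was -0.10 ± 0.09. Single arrays carried part of it: it was -0.04 without LGI 2 and -0.06 without HGI 1. Retsat correlated with the mesothelium mean at r = 0.75 over 15 arrays (rho = 0.62), and at 0.62 without the 2 farthest, 0.71 within HGI and 0.76 within LGI. LGI 2 was the highest array for that mean too. With motile cilia markers Retsat correlated at -0.54 (-0.74 within HGI and -0.54 within LGI). With adipocyte markers it correlated at -0.37 (-0.88 within HGI and -0.27 within LGI). The part of these cells in the Retsat values was not tested. The Retsat promoter holds TATAAA at bases -30 to -25, as do 13.6% of all promoters anywhere in the window.

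Among the receptors, Rara had no measured level, and Rarb did not differ detectably. Rarb ran from -0.32 to 0.18 with a median of -0.14 on the HGI arrays, and from -0.21 to 0.21 with a median of -0.05 on the LGI arrays. The difference was -0.09 ± 0.07 (adjusted p = 0.80), with a 95% interval of 0.850 to 1.04-fold, and over 15 arrays it was -0.07 ± 0.07. Without LGI 7 it was -0.05. Its second probe was dim on every array.

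Rarg was the receptor with 2 tested probes, and both means lay higher in HGI. On the second probe the HGI arrays ran from 0.07 to 0.60 with a median of 0.34, and the LGI arrays from 0.06 to 0.35 with a median of 0.19. All 17 values lay above the pool, and 7 of 9 HGI arrays lay above the LGI median. The means were 0.35 ± 0.17 in HGI (SD, n = 9) and 0.19 ± 0.11 in LGI (SD, n = 8). The difference was 0.16 ± 0.07 (adjusted p = 0.63) over 17 arrays and 0.13 ± 0.08 (adjusted p = 0.75) over 15. The authors' deposited values gave -0.07, the opposite sign, and the scanner software's processed signals gave 0.57. On the first probe the HGI arrays ran from -0.05 to 0.50 (median 0.15), with HGI 9 at 0.50 and HGI 10 at 0.44, and the LGI arrays from -0.20 to 0.27 (median 0.08). The difference there was 0.11 ± 0.08 (adjusted p = 0.78) over 17 arrays and 0.03 ± 0.07 over 15. The 2 tested Rarg probes correlated at 0.65 over 17 arrays and at 0.55 over 15.

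For each member the 3 genes of most similar pattern were looked up among 14216 named genes, by Pearson correlation over the 15 arrays on each gene's brightest tested probe. For Stra6 they were Laptm4a (0.95), Zfp781 (0.93) and Rbm5 (0.92). For Rdh10, on its first probe, they were Vps13b (0.91), Ces5a (0.90) and Gata2 (0.90). That probe correlated at -0.47 with the second Rdh10 probe over the same arrays. For Aldh1a1 they were Rlf (0.85), Nop56 (0.83) and Cltc (0.83). Aldh1a2 was followed by Olfr938 (0.85), Olfr910 (0.84) and Map3k14 (0.84). Aldh1a7 was followed by Wfdc21 (0.89), Sparc (0.88), a matrix glycoprotein, and Hfe (0.88), a regulator of iron uptake. These 3 were higher in HGI over 15 arrays by 0.65, 0.58 and 0.44, while over 17 arrays they were higher by 0.46, 0.47 and 0.28. For Retsat they were Bckdhb (0.86), an enzyme of branched-chain amino acid breakdown, Tbc1d17 (0.84) and Mettl22 (0.84). For Rarb they were Map2k3 (0.76), Cxcl1 (0.74) and Eif2b4 (0.71), the lowest likeness among the members, and for Rarg Pard6b (0.91), Cox14 (0.90) and Atm (0.90). A best match among so many genes over 15 arrays is high by the search itself. Over all 17 arrays the same pairs correlated at 0.36 (Rarb and Eif2b4) to 0.91 (Stra6 and Zfp781), with Stra6 and Laptm4a at 0.59.

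Of 51 other genes of the pathway, 50 were on the array, and 52 probes of 32 genes were tested. None passed the adjusted test, and 23 probes had a higher and 29 a lower mean in HGI, with a median difference of -0.02 against 0.0018 for all tested probes. At an unadjusted p under 0.05, 1 was higher and 5 were lower over 17 arrays (3.62% and 4.03% of all probes), while over 15 arrays 3 were higher and 1 was lower (4.71% and 2.75% of all probes). Those over 15 arrays were Fabp5, the first Dhrs3 probe and Rdh12, a retinol dehydrogenase (0.17 ± 0.07), and the second Ncor1 probe. Rdh12 was named after its values were seen. The higher one over 17 arrays was Fabp5, a carrier of retinoic acid and fatty acids. Fabp5 ran from -0.28 to 0.40 with a median of 0.12 in HGI, and from -0.44 to -0.06 with a median of -0.20 in LGI. Its difference was 0.26 ± 0.09 (adjusted p = 0.57) over 17 arrays and 0.35 ± 0.08 (adjusted p = 0.33) over 15. The next smallest p among higher probes were those of Adh4, an alcohol dehydrogenase (0.16 ± 0.10, and 0.19 over 15 arrays), which was well above background on only 7 HGI and 5 LGI arrays, and the first Ncoa2 probe, a coactivator of nuclear receptors (0.11 ± 0.07, and 0.16 over 15).

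The 3 smallest p among lower probes were those of probes 2 and 3 of Ncor1, a corepressor of receptors without ligand (-0.36 ± 0.13 and -0.18 ± 0.07), and of Ncoa1, a coactivator (-0.18 ± 0.08). Over 15 arrays they were -0.22 ± 0.10, -0.16 ± 0.08 and -0.17 ± 0.08. The second probe of Ncoa3, another coactivator, was also among the lower ones (-0.15 ± 0.06, and -0.14 over 15). Ncor1 had 5 tested probes, whose other 3 differences were -0.05, 0.14 and 0.0011 over 17 arrays and -0.07, -0.06 and 0.02 over 15, so its probes disagreed. Rbp4, which carries retinol in blood and which fat secretes, differed by -0.08 ± 0.12 over 17 arrays and by -0.0013 over 15. Dhrs3, which reduces retinaldehyde back to retinol, differed by 0.12 ± 0.10 over 17 arrays and by 0.23 ± 0.09 (adjusted p = 0.57) over 15 on its first probe, and by 0.08 and 0.15 on its second. Cyp26b1, which degrades retinoic acid, differed by -0.20 ± 0.11, and by -0.12 over 15 arrays. The partner receptors Rxra (-0.13 and 0.04 on its 2 probes, and -0.05 and -0.03 over 15 arrays) and Rxrg (-0.06 ± 0.10, and -0.06 over 15) did not differ detectably. Lrat, which stores retinol as an ester, and Crabp2, a carrier of retinoic acid, were too dim to be tested.

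**Figure D5:**
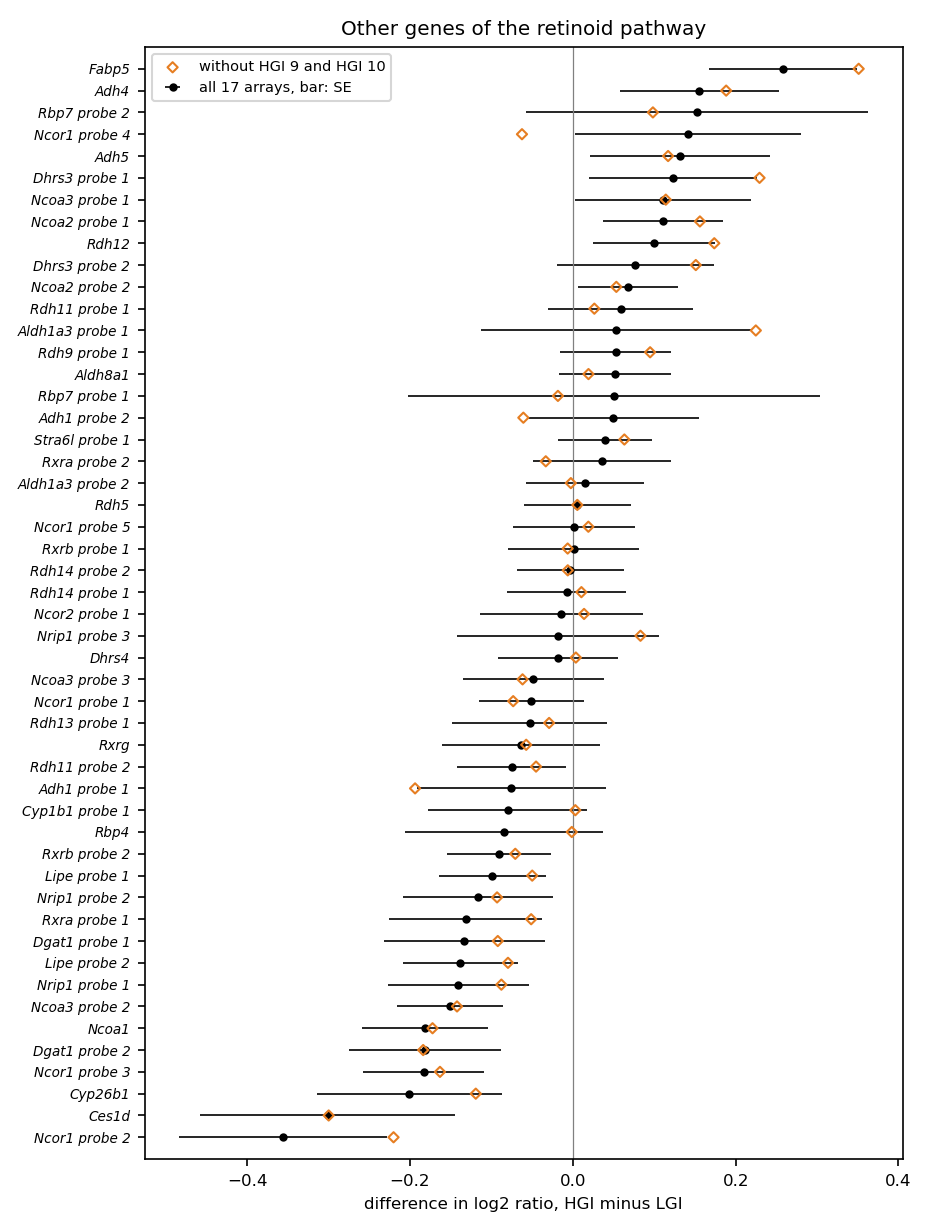
Difference in log2 ratio, HGI minus LGI (horizontal axis), of 50 of the 52 tested probes of other retinoid pathway genes, with the SE over 17 arrays (black) and the value without HGI 9 and HGI 10 (orange diamonds). Fabp5 is highest at 0.26 and the second Ncor1 probe lowest at -0.36 over 17 arrays, and most of the others plotted lie within 0.2 of 0.

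Of 18 genes that retinoic acid is known to control, 17 were on the array and 17 probes of 11 genes were tested. None passed the adjusted test: 5 had a higher and 12 a lower mean in HGI. At an unadjusted p under 0.05 by limma, 1 was lower and 0 higher over 17 arrays (4.03% and 3.62% of all probes). Over 15 arrays 1 was higher, the first Dhrs3 probe, and 0 lower (4.71% and 2.75% of all probes). The list shares genes with the other pathway genes above, Dhrs3 and Cyp26b1 among them, and Rarb with the members. Cyp26b1 and the first probe of Rarres2 were lower without reaching that p: Rarres2, the gene of the adipokine chemerin, differed by -0.14 ± 0.08, and by -0.09 over 15 arrays, beside -0.02 and 0.03 on its second probe. The smallest p among higher probes were those of Dhrs3 (first probe), Rarres1 (0.13 ± 0.14) and the second Tgm2 probe (0.07 ± 0.09, and 0.14 over 15). Rarres1 was -0.08 over 15 arrays, the opposite sign. The median difference of the list was -0.04 over 17 arrays and 0.0020 over 15.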

How the data were processed

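RNA of epididymal fat in 9 HGI and 8 LGI samples was measured on 2-colour arrays. The scanner files hold spot intensities in Cy5 and Cy3, deposited by the authors as Agilent Feature Extraction wrote them (version 9.1.3.1 per the file headers, 9.5.1.1 per the submitters' processing notes). The authors also deposited log2 values, whose normalization is not given in the sources used here; they served only as an alternative. Labels number the samples and say no more of the animals, so a p-value reflects only the spread among these samples, which may be technical.

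With limma 3.58.1 in R 4.3.3, with files read by the data.table package (version 1.17.8), intensities were background-corrected (normexp, offset 50) and normalized within arrays (loess, controls and flagged spots at weight 0). Of 43790 spots, 2256 controls were left out. Spots with outlier flags, between 4 and 43 per array, were dropped, and saturated spots stayed in. Gene names came from RefSeq (GRCm38.p6), matched for 23374 probes through the accession, for 6733 through the symbol and for 2919 through an alias; 8148 probes had no match and keep the name in the file. Probes with Cy5 well above background on 8 or more arrays were tested. Diets were compared by lmFit and eBayes, adjusted by Benjamini-Hochberg over all tested probes, with a threshold of 0.05. The fit was tested on simulated data. The number of arrays limits the precision. Promoters were searched and aligned in Python 3.11.15 with Biopython 1.88, and plots used matplotlib 3.10.9.

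The members, the gene lists and the rule for named genes were chosen with earlier results of these data known. The rule names all members, the 3 probes with the smallest p in each direction of 2 lists, 10 retinoid genes named in advance, and the 3 genes most like each member; 1 gene that it names is counted with its 2 probes but neither reported nor plotted here. Replicate numbers recur in both diets. The deviations of same-numbered samples correlated at -0.37 to 0.28, and 3 of 7 pairs were over 0.1. The labels do not say whether the numbers pair samples, and these correlations cannot settle it. The diets were therefore compared without pairs, with a replicate block as an alternative. Alternatives covered normalization, filters, left-out arrays, array weights, scan order and a replicate block.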

Additional observations from a re-analysis of the deposited data

How the results depend on the processing

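The count of members and of other pathway probes past the adjusted test was 0 under all 33 alternatives. The count over all tested probes was 4 without LGI 7 (0 to 4 with an array left out), and 1 with Cy5 intensities alone and with array weights. Some members changed sign: Aldh1a1 was -0.021 with Cy5 alone, -0.012 over the first 8 arrays scanned and -0.039 to 0.047 with an array left out. Rarg probe 2 was -0.074 in the authors' values, Rdh10 probe 1 was -0.035 over the first 8 arrays, and Retsat was 0.016 over the later 9. The causes were not tested. Aldh1a7 was positive under all 33 alternatives (0.11 to 0.33) and Stra6 negative (-0.35 to -0.09). The alternative without HGI 9, HGI 10 and LGI 9 was chosen after seeing the data.

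With the replicate number as a block over the 14 arrays that share a number, Aldh1a7 differed by 0.18 (adjusted p = 0.78) and Stra6 by -0.23 (adjusted p = 0.78), as without the block over the same arrays (adjusted p = 0.80 and 0.79). The count of members called was 0 in both fits.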

Other observations

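Rbp7, a retinol-binding protein of fat, varied between arrays far more than any member. Its first probe ran from -0.82 to 1.096 with a median of -0.01 on the HGI arrays, and from -1.16 to 0.82 with a median of -0.12 on the LGI arrays. The SD was 0.60 in HGI (n = 9) and 0.61 in LGI (n = 8), and the diets differed by 0.05 ± 0.25. The second probe, with an SD of 0.50 in both diets, differed by 0.15 ± 0.21. Rbp7 was singled out after its values were seen.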
